A study of Mus musculus with 9 samples.

Results

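The cytosolic ribosome of mouse embryonic stem (ES) cells is described here through the mRNAs of its proteins. A gene was included when it is protein-coding and its symbol starts with Rpl or Rps followed by a number or a subunit name (Rpsa, Rplp0, Rplp1, Rplp2). Pseudogenes and the S6 kinases were left out. The rule found 84 of 37310 gene rows. Of these, 75 are core proteins, 44 of the large subunit (with the 3 proteins of its stalk) and 31 of the small subunit. Another 8 are paralogs, whose symbols differ from a core gene by a closing letter or pair of letters, and 1, Rps19bp1, encodes a binding partner of Rps19 that fits the rule by name but is no ribosomal protein. Rpl24 and Rpl41 were not analysed here.

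The study induced a deletion of Zbtb11, a zinc finger transcription factor gene, in E14 ES cells grown without feeders in serum and LIF, and sequenced ribosome-depleted total RNA in 3 groups of 3 libraries. The KO-labelled group carried Zbtb11 lox/lox with ERt2-Cre at Rosa26 and received 250 nM 4-hydroxytamoxifen (4OHT) for 72 h. The 4OHT control was wild type at Zbtb11 and Rosa26 and received the same 250 nM 4OHT for 72 h. The EtOH control carried Zbtb11 lox/lox with ERt2-Cre, as the KO-labelled group did, and received ethanol for 72 h. The EtOH control therefore differs from the KO-labelled group by the drug, and the 4OHT control by the line. The 2 controls differ from each other in both. The labels do not say how many clones each line stands for, nor whether the 3 libraries of a group are separate cultures. The p-values therefore speak of library-to-library spread, which can be technical.

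Ribosomal proteins are made in the cytoplasm, carried into the nucleolus and built onto ribosomal RNA there, and a new ribosome needs nearly equal amounts of them. Their mRNAs are short, abundant and stable, and dividing stem cells hold many of them. Most open with a terminal oligopyrimidine (TOP) tract, a run of C and T letters that starts with a C at the first transcribed base and lets growth signals through mTOR and Larp1 set how fast the mRNA is translated. Several free ribosomal proteins, Rpl5 and Rpl11 first among them, can bind Mdm2 and so act on p53.

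RefSeq's promoter table (build GRCm38.p6) held 64 of the 84 genes. The windows of 7 genes that the comparisons below turn on are printed to show what their transcription starts look like. Each runs from 60 bases before to 20 bases after the annotated start, on the gene's strand. Capitals mark a tract of a C followed by at least 4 C or T letters that opens within 5 bases of the start. Rps15a (chr7:118116128-118116207, minus strand), Rps26 (chr10:128626487-128626566, minus strand), Rps27l (chr9:66946026-66946105, plus strand) and Rpl22l1 (chr3:28805448-28805527, plus strand) hold such a tract. In Rps19 (chr7:24884532-24884611, plus strand), Rps7 (chr12:28635934-28636013, minus strand) and Rps19bp1 (chr15:80264287-80264366, minus strand) these letters do not occur at the annotated start.
Rps15a: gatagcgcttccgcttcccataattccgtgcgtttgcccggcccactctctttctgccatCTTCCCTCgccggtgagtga
Rps26: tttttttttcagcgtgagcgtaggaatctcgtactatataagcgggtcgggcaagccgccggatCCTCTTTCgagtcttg
Rps27l: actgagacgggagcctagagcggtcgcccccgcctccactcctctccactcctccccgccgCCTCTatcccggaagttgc
Rpl22l1: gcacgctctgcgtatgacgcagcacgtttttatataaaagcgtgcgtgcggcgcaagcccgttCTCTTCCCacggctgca
Rps19: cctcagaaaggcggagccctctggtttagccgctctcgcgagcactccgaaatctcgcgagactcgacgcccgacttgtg
Rps7: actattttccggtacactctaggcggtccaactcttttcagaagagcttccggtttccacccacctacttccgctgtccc
Rps19bp1: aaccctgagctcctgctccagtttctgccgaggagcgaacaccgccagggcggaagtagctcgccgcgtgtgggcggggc

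The tract was present in 30 of the 64 genes (46.9%), against 22.2% of 15564 protein-coding genes with a promoter in the same table. This count rests on the annotated start. Rpl4, Rps12 and Rps25 hold a run of C and T letters further from it and were scored as without the tract. The count therefore does not tell how many of the mRNAs lack a TOP tract. The letters CCGGAAG, a sequence bound by ETS family factors, occurred on either strand of the 300-base promoter in 39.1% of the ribosomal protein genes and in 13.9% of all. The letters AAGATGG, found at sites of Yy1, occurred on either strand in 15.6% and 7.45%. The last 2 can share the letters AAG.

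Libraries held 16909139 to 23544893 counts in genes, and all 84 genes passed the filter on low counts, as did 16224 genes in all. Zbtb11 itself had 369, 386 and 376 CPM (counts scaled to a common library size with edgeR's TMM factors) in the KO-labelled libraries, against 363, 378 and 360.6 CPM in the 4OHT control and 347, 358 and 359 CPM in the EtOH control. Summed over the gene, Zbtb11 counts did not fall (log2 fold change 0.09 against the EtOH control, edgeR adjusted p = 0.174). The sources used here do not give the exons between the lox sites, and the libraries are called KO-labelled throughout. Reads in no annotated gene made up 32.7% to 33.8% of the KO-labelled libraries, against 26.7% to 27.5% in the 4OHT control and 26.4% to 28.7% in the EtOH control. The mitochondrial ribosomal RNAs mt-Rnr1 and mt-Rnr2 together held 4.61% to 6.10% of gene counts in the KO-labelled libraries, against 7.25% to 7.76% in the 4OHT control and 6.22% to 7.81% in the EtOH control. Only mt-Rnr2 was lower, with means of 2.36%, 5.05% and 4.64% in KO-labelled, 4OHT control and EtOH control. For mt-Rnr1 the means were 2.77%, 2.39% and 2.22%. The reads with no feature and the mitochondrial ribosomal RNAs enter the denominators on which a ribosomal protein level rests. In bulk RNA, fewer cells of a type and less RNA per cell cannot be told apart.

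All 11 ES cell markers were expressed, with a summed level of 5204 to 5358 CPM in the KO-labelled libraries, 5601 to 6060 CPM in the 4OHT control and 5476 to 5620 CPM in the EtOH control. Of the 11, 2 fell in the KO-labelled libraries against the EtOH control and 4 against the 4OHT control, and none rose. Of all genes 14.2% and 19.8% fell in these comparisons. Of 5 primitive endoderm markers 3 rose in the KO-labelled libraries against the EtOH control and 4 against the 4OHT control. Of all genes 13% and 19.1% rose. These markers summed to 20.1 to 23.0 CPM in the KO-labelled libraries, 10.15 to 12.03 CPM in the 4OHT control and 12.1 to 17.3 CPM in the EtOH control. The 8 fibroblast or feeder markers summed to 21.1 to 21.8 CPM in the KO-labelled libraries, 15.7 to 17.2 CPM in the 4OHT control and 18.1 to 21.1 CPM in the EtOH control. Trophoblast (4 genes) and mesoderm markers (4 genes) summed to at most 8.48 and 3.41 CPM in any library. The 2 neural markers in the files summed to 15.1 to 17.6 CPM in the KO-labelled libraries, 16.9 to 22.8 CPM in the 4OHT control and 15.6 to 20.8 CPM in the EtOH control. Their part in the ribosomal protein values was not tested.

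Levels differed far more between genes than between groups. Per kilobase of 1 annotated transcript a gene, the 75 core genes averaged 80.1 to 1509.6 CPM per kb over the 9 libraries, with a median of 624, while the paralogs and Rps19bp1 averaged 1.00 to 263 CPM per kb with a median of 28.2. The highest level per length was that of Rpl32, at 1509.6 CPM per kb and 1115 to 1834 CPM per kb across libraries. This rank rests on the mean over all libraries, since the low values, those of the 4OHT control, lie below the means of the next 4 genes. Rps12 (1426), Rplp1 (1314), Rpl8 (1289.9) and Rpl26 (1262 CPM per kb) followed, with library ranges that overlapped from each to the next. A gene whose cells use a shorter transcript than the annotated one reads too low on this scale, and the annotated transcripts of Rps15a and Rps20 were long, at 5130 and 3706 bases.

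The 84 genes together took a larger share of gene counts in the KO-labelled libraries than in either control. They held 4.56%, 4.54% and 4.29% of gene counts in the KO-labelled libraries, against 4.03%, 4.02% and 4.01% in the 4OHT control and 3.98%, 3.81% and 4.00% in the EtOH control. All KO-labelled libraries stood above all control libraries, with means of 4.46% ± 0.15, 4.02% ± 0.01 and 3.93% ± 0.10 (SD, n = 3 each) in KO-labelled, 4OHT control and EtOH control. Without the 2 mitochondrial ribosomal RNAs in the total, the order of the groups was the same, at 4.70% ± 0.12, 4.34% ± 0.004 and 4.22% ± 0.07. As a share of all reads in the file, reads with no feature included, the genes held 2.98%, 3.02% and 2.82% in the KO-labelled libraries. They held 2.92%, 2.90% and 2.87% in the 4OHT control and 2.80%, 2.77% and 2.84% in the EtOH control. On this denominator KO-labelled replicate 3 lay below all 4OHT control libraries and among the EtOH control libraries. These shares cover all members at once and were given no test.

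**Figure D1:**
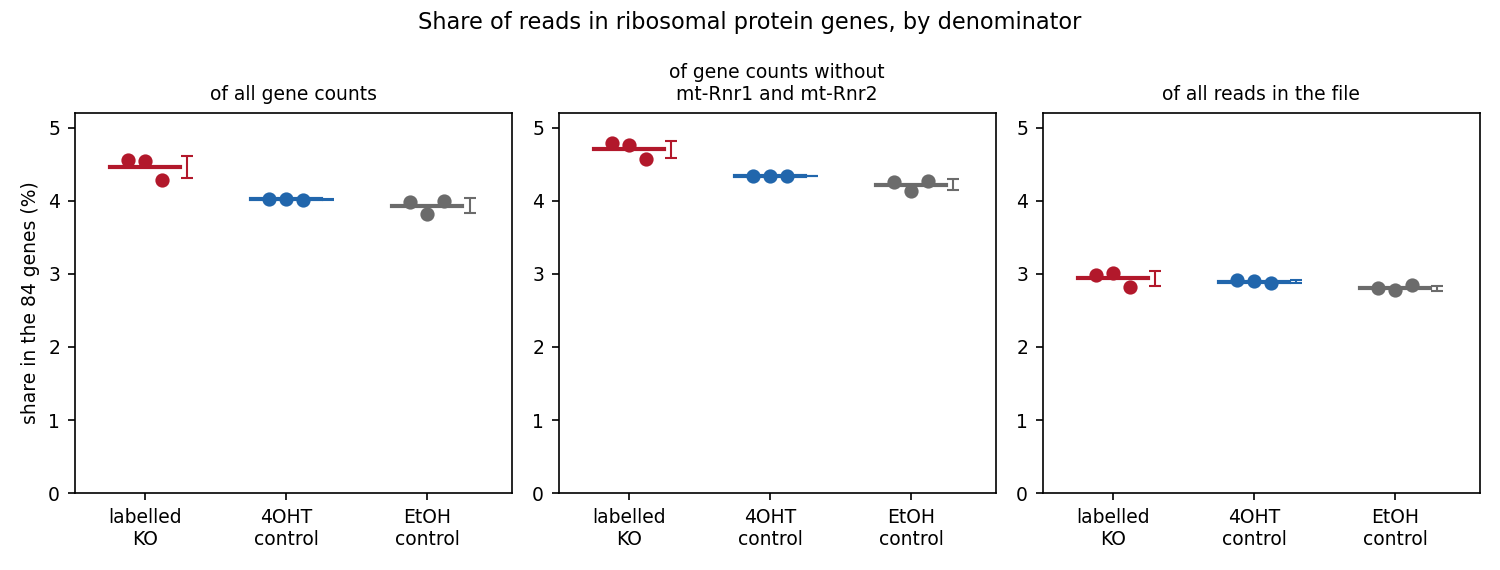
Share of reads in the 84 ribosomal protein genes in each library (points), with group means (bars) and SD (brackets), in percent of 3 denominators. The KO-labelled libraries sit at 4.29% to 4.56% of gene counts, above all control libraries, and at 2.82% to 3.02% of all reads, where they overlap both controls.

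Against the EtOH control, 77 of the 84 genes had a log2 fold change above 0 in the KO-labelled libraries, and most of these differences were small. With TMM scaling 31 of the 84 rose (36.9%) and 4 fell (4.76%) with edgeR's quasi-likelihood test at an adjusted p under 0.05, and 49 were not called. Among all 16224 genes tested, 13% rose and 14.2% fell, 27.2% in all. These shares were not matched for level, and a small difference is called more readily in an abundant mRNA. The members' median log2 fold change was 0.11 and that of all genes 0.01. Other protein-coding genes whose log2 CPM averaged 2 or more had lower medians. On the 18 chromosomes other than 6 and 8 these lay between -0.084 and -0.018. Of the 31 core small subunit genes 19 rose and 12 were not called, with a median of 0.15 and a lowest value of 0.01. Of the 44 core large subunit genes 11 rose and 1 fell, with a median of 0.10. Whether the subunits differ from each other was not tested.

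The number of calls depended on the pairing of libraries and on single libraries. Same-numbered libraries of the groups deviated together, and with the replicate number as a block 57 members rose and 6 fell (20.4% and 22.3% of all genes), among them all 35 called without it. Leaving out 1 library gave 14 to 30 rises. The count was more than 1.5 times smaller without EtOH control replicate 2 (14 rises), KO-labelled replicate 2 (15), KO-labelled replicate 1 (16) or EtOH control replicate 1 (20). Among all genes the rises were fewer too, at 2110 of 16224 with all libraries. In the same order of left-out libraries they numbered 1358 of 16513, 1794 of 16575, 1355 of 16326 and 1742 of 16470. KO-labelled replicate 3 had the lowest ribosomal protein share of its group and the highest mt-Rnr1 share of all libraries. Without it 30 members rose and 3 fell, at a median of 0.13, while 1839 and 2155 of 16499 genes did.

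In levels, the libraries of the KO-labelled and EtOH control groups did not overlap for 58 members. Of these, 53 (63.1%) were higher in all KO-labelled libraries and 5 (5.95%) were lower, against 21.3% and 20.5% of all genes. These shares too were not matched for level. By subunit, 24 of 31 small subunit genes and 28 of 44 large subunit genes were higher in all KO-labelled libraries.

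**Figure D2:**
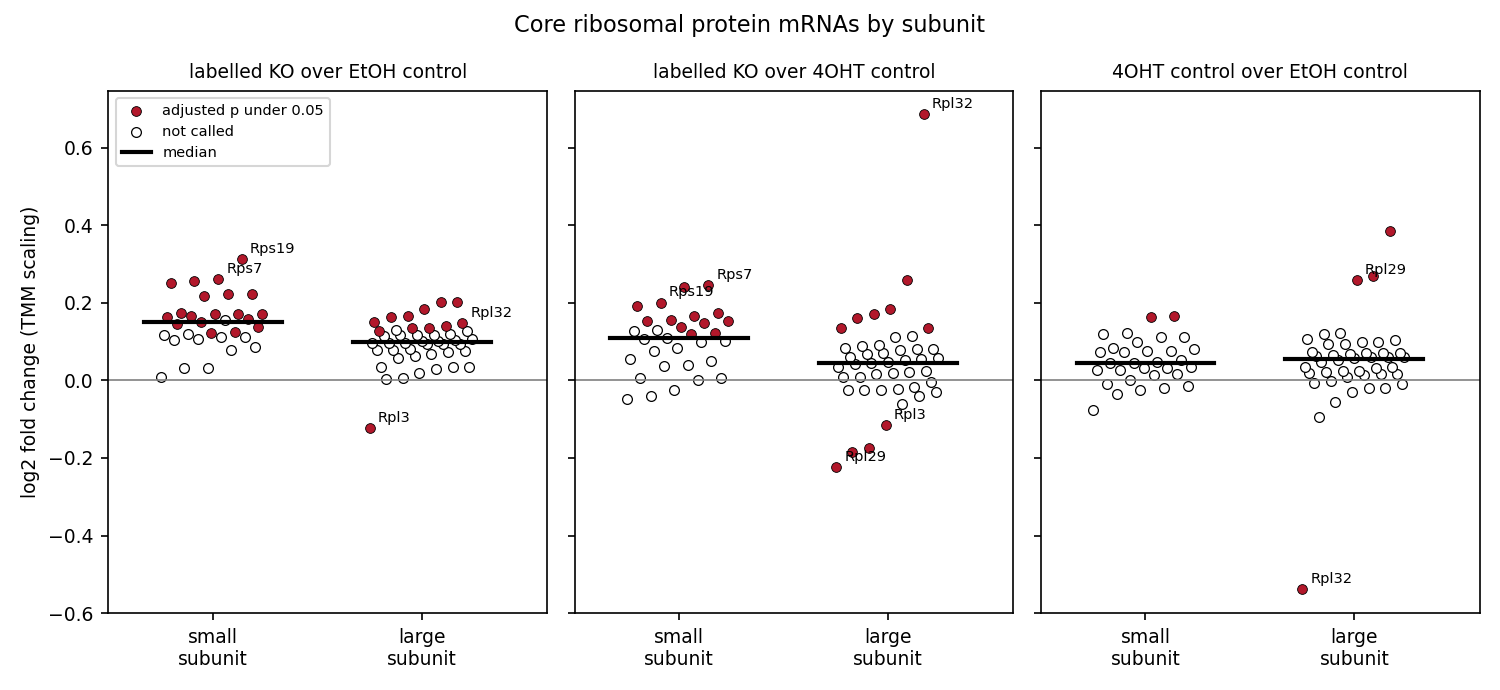
Log2 fold change (TMM scaling) of the 75 core genes, 31 of the small and 44 of the large subunit, in the 3 comparisons. Filled points passed an adjusted p of 0.05, open points did not, and bars mark medians. In the KO-labelled libraries over the EtOH control the small subunit median is 0.15 and the large subunit median 0.10.

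Rps19, a small subunit protein needed for the maturation of 18S ribosomal RNA and mutated in human Diamond-Blackfan anaemia, showed the largest called rise. It had 493, 474 and 453 CPM in the KO-labelled libraries, against 417, 411 and 407 CPM in the 4OHT control and 394, 376 and 374 CPM in the EtOH control. The 3 groups did not overlap, and the KO-labelled libraries were highest. Against the EtOH control the log2 fold change was 0.31 (SE 0.05, edgeR adjusted p = 1.82e-04).

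Rps7, a small subunit protein that can bind Mdm2, had 445, 487 and 476 CPM in the KO-labelled libraries, against 384, 401 and 403 CPM in the 4OHT control and 387, 393 and 396 CPM in the EtOH control. Here the 2 controls overlapped and the KO-labelled libraries lay above both (log2 fold change 0.26, SE 0.05, edgeR adjusted p = 8.85e-04 against the EtOH control). Rps15a, a protein of the small subunit body, had 478, 471 and 429.6 CPM in the KO-labelled libraries, against 398, 384 and 385 CPM in the 4OHT control and 384, 372 and 399 CPM in the EtOH control. It too was higher in all KO-labelled libraries (log2 fold change 0.26, edgeR adjusted p = 0.00175). Rps26, which sits at the mRNA exit channel, had 607, 628 and 624 CPM in the KO-labelled libraries, against 566, 552 and 553 CPM in the 4OHT control and 520.45, 506 and 535 CPM in the EtOH control. The 3 groups of Rps26 did not overlap (log2 fold change 0.25 against the EtOH control, edgeR adjusted p = 5.86e-04).

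Also among the larger rises were Rps23, a protein of the decoding centre (log2 fold change 0.22, edgeR adjusted p = 0.00307), and Rps27, which carries a zinc-binding site (0.22, adjusted p = 0.0044). Each was higher in all KO-labelled libraries than in any EtOH control library. Rps27 had 424, 414 and 380.4 CPM in the KO-labelled libraries, against 359.8, 348 and 339.8 CPM in the EtOH control, but 98.6% of its 50-base transcript windows occur in another annotated gene, and reads of such windows cannot be assigned by sequence.

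Of the large subunit, Rpl35a (log2 fold change 0.20, edgeR adjusted p = 0.00499) and the stalk base Rplp0 (0.19, adjusted p = 0.00656) were among the larger rises. The stalk, formed by Rplp0, Rplp1 and Rplp2, recruits and activates the GTPase factors of translation. Rplp0 had 889, 947 and 884 CPM in the KO-labelled libraries, against 815, 856 and 839.5 CPM in the 4OHT control and 798, 784 and 810.0 CPM in the EtOH control, with no overlap of the KO-labelled libraries with either control. Rplp1 also rose against the EtOH control (0.15, adjusted p = 0.0383), a call that ended with DESeq2 (0.0979), RLE factors (0.0556) and most left-out libraries. Rplp2 was not called (0.12, adjusted p = 0.18), and its libraries overlapped.

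Rpl3, which lines the peptidyl transferase centre, was the only core gene called lower against the EtOH control. It had 737, 724 and 722 CPM in the KO-labelled libraries, against 784, 778 and 802 CPM in the 4OHT control and 788, 775 and 813 CPM in the EtOH control. All KO-labelled libraries were lower than all control libraries (log2 fold change -0.12, SE 0.04, edgeR adjusted p = 0.0425). The call ended with gene count totals (adjusted p = 0.388), with upper quartile factors (0.16) and on leaving out any of 7 libraries (0.0502 to 0.14).

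Paralogs and Rps19bp1 behaved less uniformly. Of these 9 genes 1 rose and 3 fell against the EtOH control (11.1% and 33.3%, against 13% and 14.2% of all genes). Rps27l, a paralog of Rps27 and a known p53 target, had 154, 148 and 147 CPM in the KO-labelled libraries, against 129, 122 and 119.6 CPM in the 4OHT control and 131, 121 and 112 CPM in the EtOH control. It was higher in all KO-labelled libraries than in any control (log2 fold change 0.30, SE 0.06, edgeR adjusted p = 0.0014). Its parent Rps27 rose by 0.22.

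Rpl22l1, a paralog whose mRNA is held down by Rpl22 in mouse cells, had 47.4, 44.9 and 41.5 CPM in the KO-labelled libraries, against 65.0, 68.0 and 69.0 CPM in the 4OHT control and 63.7, 60.03 and 65.7 CPM in the EtOH control. Labelled KO libraries were lower throughout (log2 fold change -0.50, SE 0.06, edgeR adjusted p = 2.81e-05). Rpl22 itself rose slightly against the EtOH control (0.13, adjusted p = 0.041), but this call ended on leaving out any 1 of the 9 libraries (0.0526 to 0.149), with DESeq2 (0.113) and with RLE factors (0.0641).

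Rps19bp1, also known as AROS, a regulator of the deacetylase Sirt1, showed the largest fall of the 84 genes against the EtOH control. It had 17.9, 17.1 and 15.1 CPM in the KO-labelled libraries, against 23.7, 27.8 and 24.1 CPM in the 4OHT control and 28.3, 30.1 and 28.8 CPM in the EtOH control. The KO-labelled libraries were lowest and the controls did not overlap each other (log2 fold change -0.80, SE 0.09, edgeR adjusted p = 5.47e-06). Rps19, the protein it is named for, moved the opposite way.

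Rpl7l1, a homolog of Rpl7, had 178, 193 and 184 CPM in the KO-labelled libraries, against 232, 239.75 and 219 CPM in the 4OHT control and 208, 218 and 207 CPM in the EtOH control. It was lower in all KO-labelled libraries (log2 fold change -0.19, edgeR adjusted p = 0.0129), and the call ended with gene count totals (0.0819), without KO-labelled replicate 1 (0.0539) and without EtOH control replicate 2 (0.0609). Its parent Rpl7 was not called (0.06, adjusted p = 0.29). The remaining paralogs, Rpl3l of striated muscle, the testis retrogene Rpl10l, Rpl36al, Rpl39l and Rps27rt, were not called against the EtOH control, and Rpl3l and Rps27rt stayed at or below 1.78 CPM in every library.

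**Figure D3:**
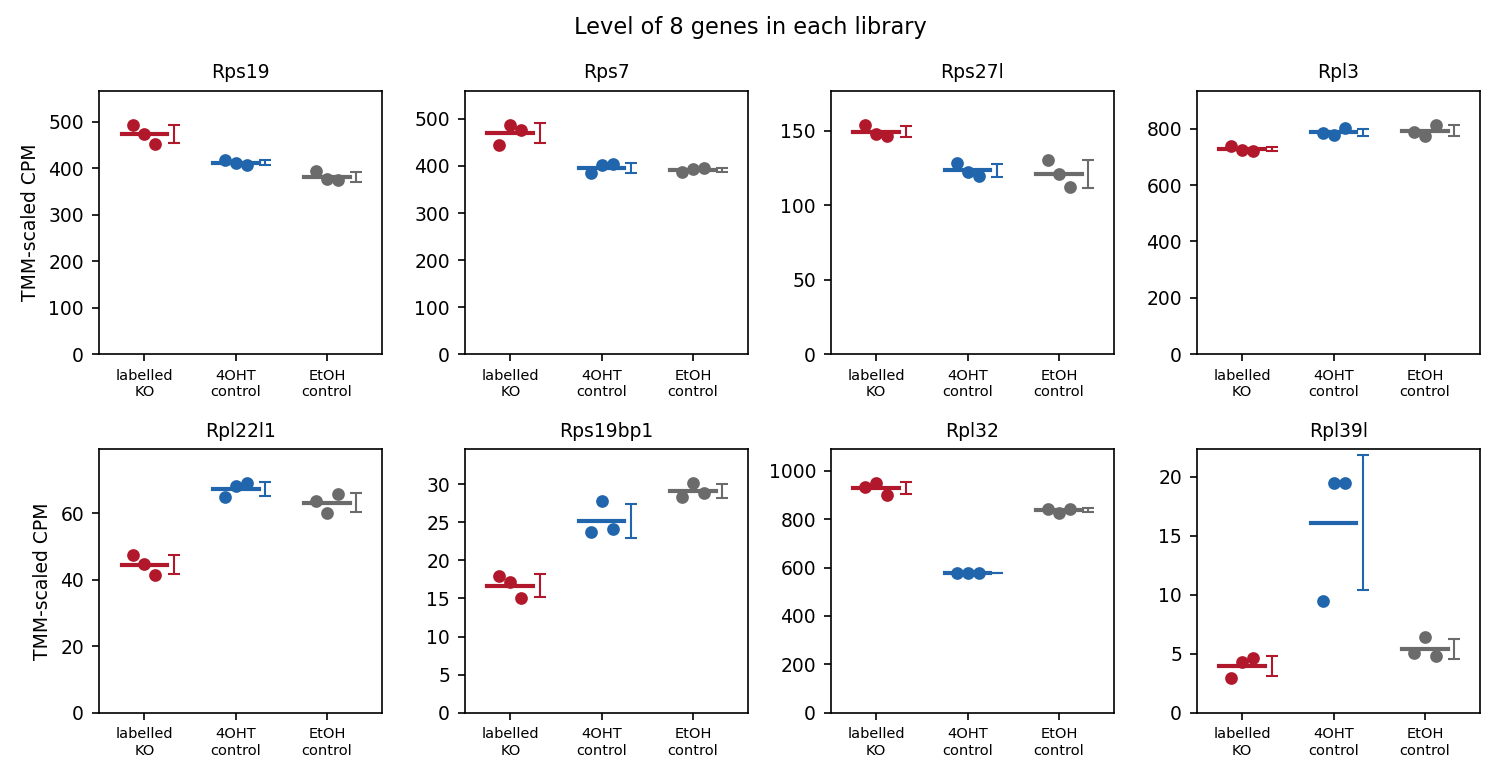
TMM-scaled CPM of 8 genes in each library (points), with group means (bars) and SD (brackets). Rps19, Rps7 and Rps27l are highest and Rpl3, Rpl22l1 and Rps19bp1 lowest in the KO-labelled libraries, while Rpl32 and Rpl39l stand apart in the 4OHT control.

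The number of members that passed changed with the library scaling. Against the EtOH control, gene count totals gave 62 rises and 2 falls (18.7% and 9.42% of all genes) and a member median of 0.18. Totals without mt-Rnr1 and mt-Rnr2 gave 55 and 3 (16.6% and 11.2%), and upper quartile factors 56 and 3 (16.6% and 11.1%), with medians of 0.16. RLE factors gave 24 and 4 (12.4% and 15.2%) with a median of 0.10. All reads in the file as the total gave 13 rises and 5 falls (10.3% and 18.6%) with a median of 0.07. The share of the members' calls that were rises was 88.6% with TMM, 96.9% with gene count totals and 72.2% with all reads.

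A change of library scaling shifts all genes alike, so the gap between the members' median and that of all genes is fixed by construction under these 6 scalings, at 0.099 to 0.1003 against the EtOH control and 0.0356 to 0.0359 against the 4OHT control. Settings that can move it gave smaller or larger gaps. It was larger with a filter of 1 CPM in 3 libraries, at 0.1155 against the EtOH control and 0.0512 against the 4OHT control. Without KO-labelled replicate 3 it was 0.1202 and 0.0559. With a transcript length offset it was 0.0809 against the EtOH control and -0.001 against the 4OHT control. Between the controls that offset widened it from 0.0467 to 0.077. With DESeq2, whose set of tested genes differs, it was 0.0745 against the EtOH control and 0.0137 against the 4OHT control. TMM factors computed without the 84 genes gave 29 rises and 4 falls against the EtOH control (2097 and 2332 of all 16224 genes). A transcript length offset gave 21 and 4 (2045 and 2475 of all genes), and a GC offset 23 and 4 (2039 and 2486). DESeq2 gave 21 and 4 (9.08% and 14.8% of all genes). Across 11 settings of scaling, offset and tool, DESeq2 among them, 13 members rose and 2 fell against the EtOH control in every one. How many of all genes were called in every one was not counted. The rises included Rps2, Rps6, Rps7, Rps15a, Rps19, Rps23, Rps26, Rps27, Rps27l, Rpl35a and Rplp0, and the falls were Rpl22l1 and Rps19bp1.

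**Figure D4:**
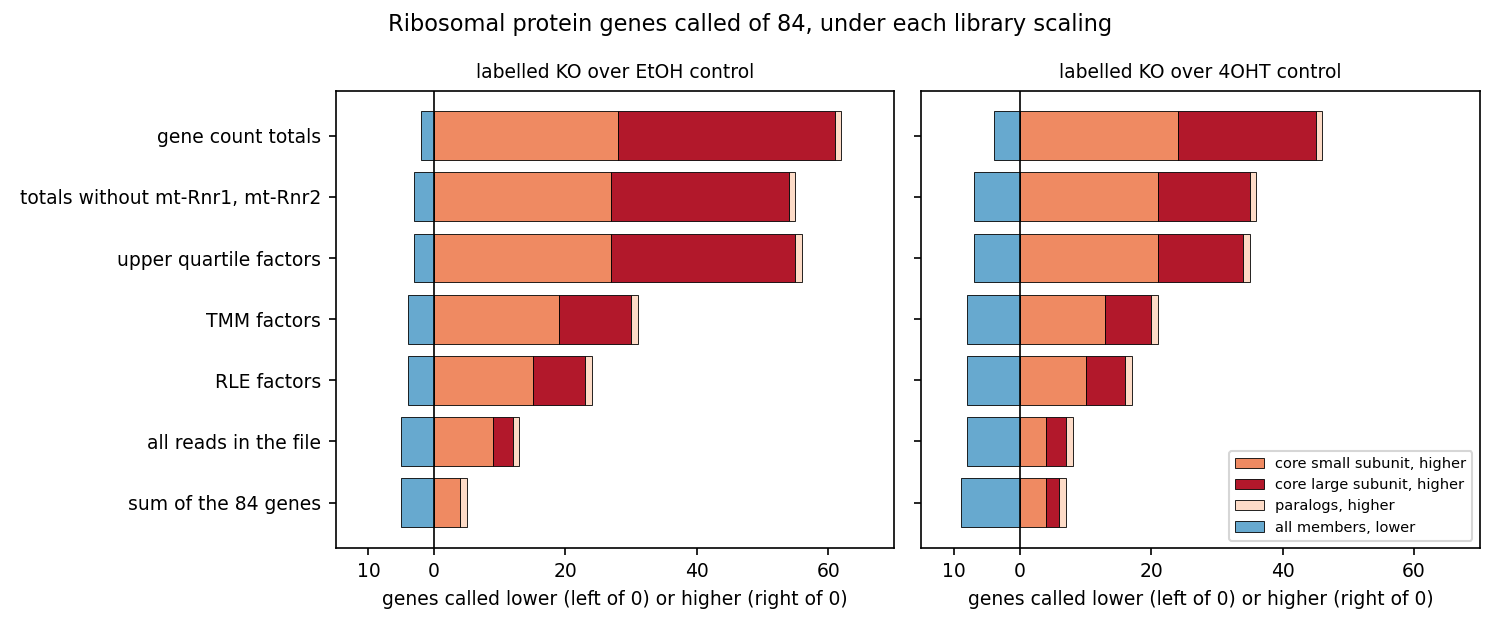
Number of the 84 genes called higher (right of 0, split by class) or lower (left of 0) in the KO-labelled libraries, at an edgeR adjusted p under 0.05, under 7 library scalings. Rises against the EtOH control number 62 with gene count totals, 31 with TMM, 13 with all reads and 5 relative to the sum of the 84 genes.

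A comparison free of the library total sets each gene against the sum of the 84 genes in its own library. On that scale 5 members were higher and 5 lower in the KO-labelled libraries than in the EtOH control, against 7.93% and 26.6% of all genes, and the members' median was 0.00 by construction. The 5 higher were 4 core small subunit genes and Rps27l, namely Rps19 (relative log2 fold change 0.20, edgeR adjusted p = 0.00494), Rps27l (0.19, 0.0274), Rps7 (0.15, 0.0303), Rps15a (0.14, 0.0332) and Rps26 (0.14, 0.0272). Lower were Rps19bp1 (-0.91), Rpl22l1 (-0.62), Rpl7l1 (-0.30), Rpl36al (-0.25) and Rpl3 (-0.24). Against the 4OHT control 7 members were relatively higher, led by Rpl32 (0.62), and 9 lower, against 14.5% and 25.6% of all genes (40.1% together). Between the controls 4 were higher and 4 lower, against 7.19% and 11.5%.

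Counts in the core small subunit genes divided by those in the core large subunit genes gave 0.725, 0.722 and 0.709 in the KO-labelled libraries, against 0.703, 0.696 and 0.689 in the 4OHT control and 0.693, 0.684 and 0.696 in the EtOH control. All KO-labelled libraries had a higher ratio than all control libraries, and the 2 controls overlapped. The lowest KO-labelled library and the highest 4OHT control library lay closer together than the KO-labelled libraries did among themselves. This ratio does not depend on the library total. It was given no test.

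The comparison of the KO-labelled libraries with the 4OHT control keeps the drug and changes the line, and it shares the KO-labelled libraries with the comparison above. In it 21 members rose (25.0%) and 8 fell (9.52%), against 19.1% and 19.8% of all genes (39% together), with a member median of 0.06 and a median of 0.02 for all genes. Of the 31 small subunit genes 13 rose and 18 were not called, and large subunit genes 7 rises and 4 falls of 44. In levels, 33 members (39.3%) were higher and 10 (11.9%) lower in all KO-labelled libraries, against 24.5% and 23.7% of all genes. With the replicate block 34 rose and 8 fell (25.5% and 25.9% of all genes).

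Rises against the 4OHT control were led by Rpl32, Rps27l (log2 fold change 0.28, edgeR adjusted p = 0.00155), Rpl37 (0.26, adjusted p = 5e-04) and Rps7 (0.25, adjusted p = 7.97e-04). Rpl37, a zinc-binding protein of the large subunit, had 354, 367 and 337 CPM in the KO-labelled libraries, against 297, 295 and 291 CPM in the 4OHT control and 317, 305 and 321 CPM in the EtOH control. Its KO-labelled libraries lay above both controls, and the controls did not overlap each other. Rps15a (0.24) and Rps19 (0.20) rose as well. The falls included Rpl39l, Rpl22l1 (-0.59, adjusted p = 2.24e-06), Rps19bp1 (-0.59, adjusted p = 6.6e-05), Rpl7l1 (-0.32, adjusted p = 1.8e-04), Rpl29, Rpl13 and Rpl3 (-0.11, adjusted p = 0.043). With gene count totals the calls of Rpl29 (adjusted p = 0.0594), Rpl13 (0.112) and Rpl3 (0.587) ended. That of Rpl3 also ended with upper quartile factors (0.188) and on leaving out any of 8 libraries (0.0526 to 0.139).

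Scaling moved this balance further. Gene count totals gave 46 rises and 4 falls (26% and 14.4% of all genes), and shifted the median of all genes to 0.10. Upper quartile factors gave 35 and 7 (22.3% and 16.6%), totals without the mitochondrial ribosomal RNAs 36 and 7 (22.5% and 16.4%), RLE factors 17 and 8 (18.2% and 20.7%) all reads 8 and 8 (15.8% and 23.7%) and DESeq2 14 and 8 (13.5% and 18.3%). The members' median stayed positive under these scalings, at 0.01 to 0.14. Relative to the sum of the 84 genes, where it lies near 0 by construction, it was -0.01. With a transcript length offset 10 rose and 10 fell (3002 and 3367 of all 16224 genes), and the median was 0.01. Without KO-labelled replicate 2, KO-labelled replicate 1, 4OHT control replicate 2 or 4OHT control replicate 3 the rises numbered 11, 12, 14 and 14. Among all genes they numbered 2750 of 16575, 2341 of 16326, 2544 of 16615 and 2563 of 16489, against 3103 of 16224 with all libraries.

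The 2 controls differed from each other in few ribosomal protein genes. In the 4OHT control against the EtOH control 6 members rose (7.14%) and 1 fell (1.19%), against 9.66% and 8.75% of all genes, with a member median of 0.05 and 0.00 for all genes. These 7 calls were made under the 11 settings of scaling, offset and tool named above. Relative to the sum of the 84 genes the calls of Rps3 (adjusted p = 0.0725) and Rps28 (0.0785) ended. Calls among all genes were 8.72% higher and 9.34% lower with gene count totals, 9.5% and 8.46% with all reads, and 8.66% and 8.3% with DESeq2. In levels, 31 members (36.9%) were higher in all 4OHT control libraries and 4 (4.76%) lower, against 18.1% and 17% of all genes. With the replicate block 21 rose and 4 fell (17% and 15.8% of all genes). With a transcript length offset 13 rose and 1 fell (1590 and 1438 of all 16224 genes).

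Rpl32, a protein of the large subunit, had the largest log2 fold change between the controls among core genes. It had 935, 948 and 899.9 CPM in the KO-labelled libraries, 576, 576 and 577 CPM in the 4OHT control and 843, 827 and 842 CPM in the EtOH control. The groups did not overlap. The log2 fold change was -0.54 (SE 0.04, edgeR adjusted p = 4.48e-07) for the 4OHT control against the EtOH control and 0.69 (SE 0.04, adjusted p = 3.91e-09) for KO-labelled against the 4OHT control. Snora7a, a small nucleolar RNA encoded in an intron of Rpl32, had 204, 159 and 132 counts in the KO-labelled libraries, against 78, 55 and 60 counts in the 4OHT control and 121, 95 and 69 counts in the EtOH control.

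Genes next to Rpl32 on chromosome 6 moved with it. Of the 40 nearest expressed protein-coding genes, 20 on each side, 36 fell and 1 rose in the 4OHT control against the EtOH control, with a median log2 fold change of -0.60. Chromosome 6 as a whole had a median of -0.16 over 492 genes.

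Rpl13, a large subunit protein encoded on chromosome 8, was higher in the 4OHT control. It had 681, 676 and 687 CPM in the 4OHT control, against 561, 549 and 588.5 CPM in the EtOH control (log2 fold change 0.27, edgeR adjusted p = 5.92e-04). The median of chromosome 8 was 0.24 over 578 genes, and the 40 neighbours of Rpl13 had a median of 0.22. The 18 other chromosomes had medians between -0.02 and 0.02. DNA copy number was not measured here, and line and drug cannot be told apart in this comparison.

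The KO-labelled libraries were set against the same 4OHT control libraries, and there Rpl13 fell by 0.17 (edgeR adjusted p = 0.00621). Against the EtOH control, which has the same line, Rpl32 rose by 0.15 (adjusted p = 0.0167) and Rpl13 was not called (0.09, adjusted p = 0.138). The call of Rpl32 ended with all reads (0.101), with a transcript length offset (0.12), and without KO-labelled replicate 1 (0.0665) or 2 (0.0731) or EtOH control replicate 2 (0.0757). Leaving out the members on chromosomes 6 and 8, 28 of 72 core genes rose and 1 fell against the EtOH control (38.9% and 1.39%, against 13% and 14.2% of all genes). Against the 4OHT control 19 rose and 2 fell (26.4% and 2.78%, against 19.1% and 19.8%). Between the controls 3 rose (4.17%, against 9.66% of all genes) and 69 were not called. The shares of all genes include chromosomes 6 and 8.

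**Figure D5:**
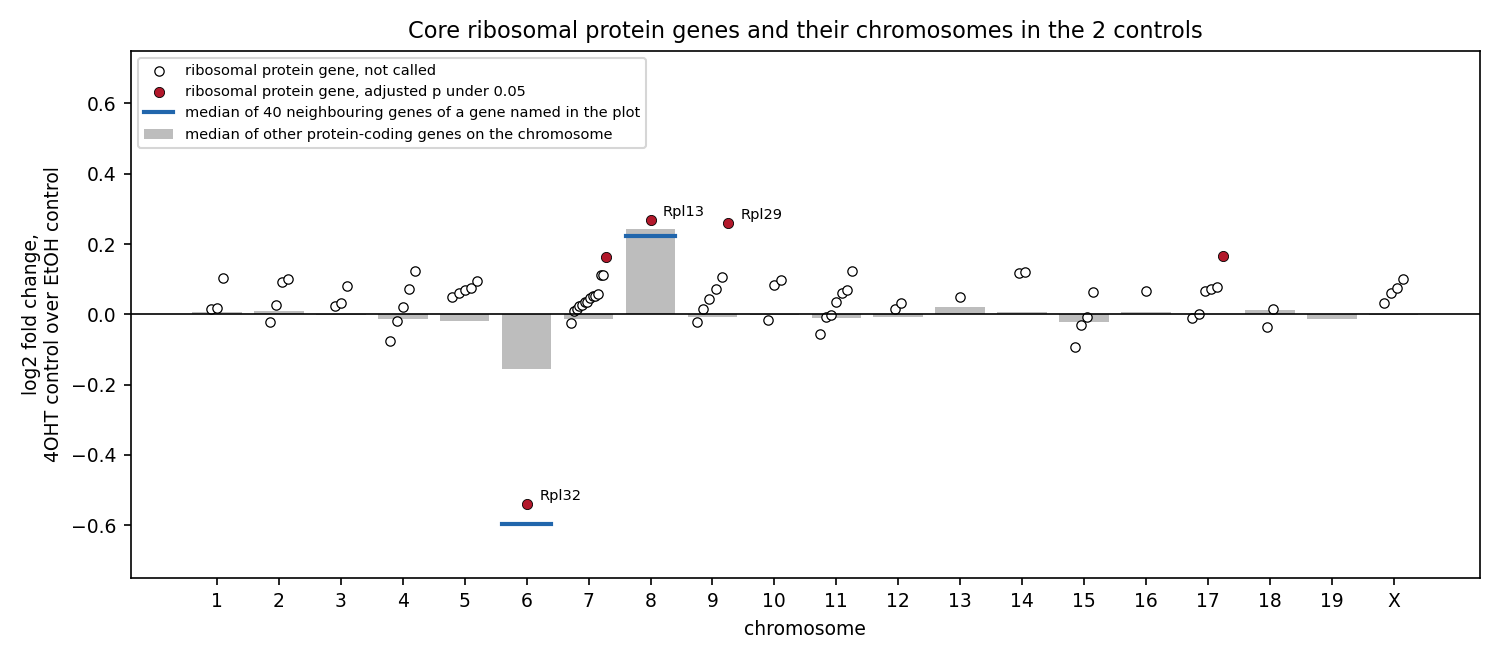
Log2 fold change of core ribosomal protein genes in the 4OHT control over the EtOH control, by chromosome (points, with not every core gene drawn, filled where the adjusted p was under 0.05), with the median of other expressed protein-coding genes on each chromosome (grey bars) and of the 40 neighbours of Rpl32 and of Rpl13 (blue lines). Chromosomes 6 and 8 have medians of -0.16 and 0.24, and the others lie between -0.02 and 0.02.

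Away from these chromosomes, Rpl39l, a paralog of Rpl39 expressed mainly in testis, differed most between the controls. It had 2.97, 4.28 and 4.62 CPM in the KO-labelled libraries, 9.48, 19.4 and 19.4 CPM in the 4OHT control and 5.05, 6.38 and 4.78 CPM in the EtOH control. The 4OHT control was highest and also the most spread of the 3 groups. The log2 fold change was 1.56 (SE 0.28, edgeR adjusted p = 0.0048) between the controls and -2.03 (SE 0.29, adjusted p = 5.6e-04) for KO-labelled against the 4OHT control. Against the EtOH control Rpl39l was not called (-0.47, SE 0.32, adjusted p = 0.317). Its parent Rpl39 was called in no comparison.

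Rpl29, a small protein of the large subunit, had 67.7, 70.4 and 68.6 CPM in the 4OHT control, against 57.4, 56.3 and 59.0 CPM in the EtOH control (log2 fold change 0.26, edgeR adjusted p = 0.00494). The KO-labelled libraries, at 55.7, 62.8 and 58.5 CPM, were below the 4OHT control (-0.22, adjusted p = 0.00603) and overlapped the EtOH control. Rps3, a small subunit protein at the mRNA entry site, also rose between the controls (0.16, adjusted p = 0.0164), a call that ended without 4OHT control replicate 2 (0.0725) or EtOH control replicate 2 (0.0932). Rps28, of the small subunit head, rose by 0.17 there, a call that ended without 4OHT control replicate 1 (0.0569) or 3 (0.0757) or EtOH control replicate 2 (0.0792).

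Of 10 members that can bind Mdm2, 5 rose against the EtOH control (Rps7, Rps26, Rps25, Rpl23 and Rps3) and 5 were not called, with a median of 0.12. Of all genes 13% rose. The call of Rps3 ended with DESeq2 (adjusted p = 0.127), RLE factors (0.0764) and on leaving out any 1 of the 9 libraries (0.0631 to 0.206), and those of Rps25 (0.0761) and Rpl23 (0.128) ended with all reads and without some libraries. The pair best known for this, Rpl5 and Rpl11, was not called (0.08, edgeR adjusted p = 0.199, and 0.09, adjusted p = 0.172). Against the 4OHT control Rps7, Rps14, Rps20, Rps25 and Rps26 rose, while 19.1% of all genes did. Of these calls Rps25 ended with DESeq2 (0.141), RLE factors (0.0795) and most left-out libraries, Rps14 with DESeq2 (0.0818) and some left-out libraries, and Rps20 (0.0661) and Rps26 (0.0694) with all reads. Rps27a, which is made as a fusion with ubiquitin, rose in both comparisons (0.14 and 0.15), and its call against the EtOH control (adjusted p = 0.0343) ended with DESeq2 (0.0877) and RLE factors (0.0514).

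The members share traits that the rule did not use. Of the 84 genes 80 share a 50-base window of their transcript, or more, with another annotated gene. The kinds of gene they share with were not counted. The median gene shares 52.2% of its windows. Of the 42 genes below that median 18 rose and 2 fell against the EtOH control (42.9% and 4.76%). Of the 42 at or above it 13 rose and 2 fell (31.0% and 4.76%), against 13% and 14.2% of all genes. The row for reads with several alignments holds 0 in all libraries, so reads from such shared windows were settled or dropped before counting. Rows of ribosomal protein pseudogenes held 2.36% to 2.46% as many counts as the members in the KO-labelled libraries, against 2.26% to 2.38% in the 4OHT control and 2.57% to 2.70% in the EtOH control.

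Introns of 30 members contain small nucleolar RNA genes, and 13 of these hosts rose and 1 fell against the EtOH control (43.3% and 3.33%). Among the 54 members without one 18 rose and 3 fell (33.3% and 5.56%). Of all genes 13% rose and 14.2% fell. The 55 hosted RNAs found in the files summed to 134, 121 and 113 CPM in the KO-labelled libraries, against 126, 107 and 88.3 CPM in the 4OHT control and 129, 105 and 108 CPM in the EtOH control, and the groups overlapped. Of the 30 genes with a pyrimidine tract at the annotated start 12 rose and 1 fell against the EtOH control. Of the 34 genes without it there, 13 rose and 2 fell. This split follows the annotated start and does not separate TOP mRNAs from others. Of 540 other protein-coding genes whose transcripts reach at most 1000 bases, 6.48% rose and 11.5% fell against the EtOH control, with a median of -0.01.

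Ribosomal proteins with other symbols were measured beside them. Fau, which yields the small subunit protein eS30, rose against both the EtOH control (log2 fold change 0.14, edgeR adjusted p = 0.044) and the 4OHT control (0.14, adjusted p = 0.0335), and both calls ended with DESeq2 (0.113 and 0.0925) and RLE factors (0.0644 and 0.0513). Rack1, on the head of the small subunit, was not called in any comparison.

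Of 20 other genes whose mRNAs are known to carry a TOP tract, 6 rose against the EtOH control, namely the elongation factor Eef1a1 (0.23), Eif4a2 (0.30), Pabpc1 (0.13), Tpt1 (0.17), Naca (0.15) and Hnrnpa1 (0.23), and 3 fell, namely the initiation factor subunits Eif3f (-0.60) and Eif3e (-0.16) and the chaperonin subunit Cct4 (-0.13). Their median was 0.01, and the rises were 30.0% and the falls 15.0% of the list, against 13% and 14.2% of all genes. The calls of Pabpc1, Naca, Tpt1, Eif3e and Cct4 ended under some scalings or on leaving out some libraries. Against the 4OHT control 2 of the 20 rose and 5 fell (10.0% and 25.0%), against 19.1% and 19.8% of all genes.

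Of 17 tested factors that escort ribosomal proteins or build subunits, 5 fell against the EtOH control and 12 were not called, with a median of -0.08. The falls were 29.4% of the list, against 14.2% of all genes. They were Bccip (-0.39), a chaperone of Rpl23, Bop1 (-0.34), a large subunit assembly factor, Pdcd2l (-0.27), Aamp (-0.21) and the small subunit export factor Ltv1 (-0.19). With gene count totals the calls of Pdcd2l (adjusted p = 0.0618), Aamp (0.176) and Ltv1 (0.0757) ended. Against the 4OHT control 8 fell (47.1%) and 1 rose (5.88%), against 19.8% and 19.1% of all genes. Tsr2, the chaperone of Rps26, was not called against the EtOH control (-0.13, edgeR adjusted p = 0.177) and fell by 0.35 against the 4OHT control (adjusted p = 9.44e-04).

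Among 19 regulators of ribosomal protein synthesis 1 rose (5.26%) and 3 fell (15.8%) against the EtOH control, against 13% and 14.2% of all genes, so the share of falls was near that of all genes. Mtor, the kinase that controls TOP mRNA translation, had 138 ± 10.3 CPM in the KO-labelled libraries and 181 ± 4.06 CPM in the EtOH control (SD, n = 3 each, log2 fold change -0.39, edgeR adjusted p = 1.2e-04). Larp1, which binds TOP tracts, fell by 0.21 (adjusted p = 0.00367), and Gabpa, an ETS factor, fell by 0.16 (adjusted p = 0.0325), a call that ended with gene count totals (0.198). Mlst8, a partner of Mtor, rose by 0.61 (adjusted p = 5.2e-05). The p-values and counts of these lists rest on the same fit over all genes.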

How the data were processed

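Per the labels, 9 ribosome-depleted, directional total RNA libraries were made from 1 µg of RNA each. The deposited files hold the authors' raw read counts per gene, written by HTSeq. The submitters' processing notes name STAR, HTSeq and edgeR, and for other assays cutadapt, Bowtie 1.1.2, MACS2 and DiffBind, with build mm9. The counting strand is not stated. The 5 rows that name no gene were left out of tests and library sizes. Of these, reads with no feature were 26.4% to 33.8% and ambiguous reads 0.780% to 0.908% of a library. Gene counts per library were 16909139 to 23544893.

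Gene symbols came from GENCODE M21 names. The members and gene lists were chosen with earlier results of these data known. One quasi-likelihood fit of all 9 libraries (edgeR 4.0.16, R 4.3.3, TMM factors, filterByExpr, robust, 6 residual degrees of freedom) gave the 3 comparisons, with Benjamini-Hochberg adjustment over 16224 genes and a threshold of 0.05. The fitting steps were run on simulated counts with changes larger than the typical member's and no tie between same-numbered libraries. That run cannot tell how reliable calls of the members' size are. Same-numbered libraries of different groups correlated at 0.109 to 0.311 (9 pairs of deviations from the group means) and differently numbered ones at -0.225 to -0.022 (18 pairs). Pairing by number was thus read from the data, not from the labels. The fit above has no replicate term, so p-values and calls are unpaired except where the replicate block is named. No 2 replicates agreed within sampling noise (chi-square per degree of freedom 4.975 to 16.73).

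Genes named are, among called members, the 8 largest rises and falls against the EtOH control and the 4 largest each way in the other comparisons, the 5 highest levels per length, paralogs with their parents, the stalk, Mdm2 binders and Rps27a. Rps28, Rpl35a and the genes named from other lists were added after their values were seen. Some genes that this rule covers are not reported here. Alternatives were other scalings, offsets for transcript length and GC, filters, a replicate block, left-out libraries and DESeq2 1.42.0. Shared windows of 50 bases were sought among annotated transcripts. Neighbours came from RefSeq gene order (GRCm38.p6), among protein-coding genes whose log2 CPM averaged 2 or more.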

Additional observations from a re-analysis of the deposited data

How the results depend on the processing

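In the KO-labelled libraries against the EtOH control, the 31 rises became 56 with upper quartile factors, 62 with gene count totals, 55 with totals without mt-Rnr1 and mt-Rnr2, 13 with all reads, 5 relative to the members' sum and 20 with no filter on low counts (where 2264 of 27717 genes rose). The 4 falls became 2 with gene count totals. The median of 0.11 became 0.16, 0.18, 0.16, 0.068 and 0.0011 under the first 5 of these. Against the 4OHT control the 21 rises became 35, 46, 36, 8 and 7 under those 5, and 10 with a transcript length offset. The 8 falls became 4 with gene count totals. The median of 0.06 became 0.10, 0.14, 0.10, 0.010 and -0.012 under those 5, and 0.0058 with the length offset. Between the controls the 6 rises became 13 with the length offset, the 1 fall became 4 relative to the members' sum, and the median of 0.05 became 0.037 with gene count totals, 0.0057 relative to the members' sum and 0.084 with the length offset. The medians near 0 relative to the members' sum follow by construction, since that scaling holds the members' total equal in all libraries. For the other settings the cause was not tested.

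With the replicate block, 57 members rose against the EtOH control, 34 against the 4OHT control and 21 between the controls, where 4 fell. The share of gene counts, 4.46%, 4.02% and 3.93% in KO-labelled, 4OHT control and EtOH control libraries, became 4.70%, 4.34% and 4.22% without mt-Rnr1 and mt-Rnr2, and 2.94%, 2.89% and 2.81% of all reads.

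Leaving out 1 library gave 14 to 30 rises, 2 to 5 falls and medians of 0.079 to 0.13 against the EtOH control, and 11 to 23 rises, 7 to 8 falls and medians of 0.039 to 0.073 against the 4OHT control. Between the controls it gave 4 to 6 rises, 1 to 2 falls and medians of 0.032 to 0.058. Rises among all genes were 1355 to 2132 against the EtOH control, 2341 to 3076 against the 4OHT control and 1014 to 1583 between the controls. The median against the 4OHT control changed sign relative to the members' sum, as given above, where a value near 0 is fixed by construction. Groups of 3 libraries limit the detection of differences as small as the typical member's.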
